A study of Mus musculus with 6 samples.

Results

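The lysosomal cathepsins Ctsa, Ctsb, Ctsc, Ctsd, Ctsf, Ctsh, Ctsk, Ctsl and Ctsz were examined in RNA-seq libraries of cultured mouse satellite cells (SCs), the muscle stem cells. These 9 genes, of the 35976 in the tables, were taken by symbol. The study asked what SCs do without NF-YA, the subunit through which the trimeric factor NF-Y binds the CCAAT box of promoters. NF-YA cKO mice carried floxed NF-YA alleles and a Pax7-driven, tamoxifen-dependent Cre recombinase, whereas the NF-YA fl/fl controls carried the floxed alleles without Cre. Mice of both genotypes received tamoxifen (20 mg/ml) and were 5 to 7 weeks old according to the labels. SCs were enriched from hindlimb muscle by depleting cells that carried endothelial and blood cell antigens or Sca1, and then grown in growth medium before RNA was extracted. Each genotype had 3 libraries, and the labels do not say which mice or cultures the replicates came from, so that the tests measure the spread between these libraries.

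Cathepsins are proteases of the lysosome, where material delivered by endocytosis and autophagy is broken down. Most are cysteine proteases, Ctsd is an aspartic protease and Ctsa a serine carboxypeptidase. They are made as inactive precursors, sorted to the lysosome largely through mannose 6-phosphate receptors and activated at acidic pH. The cysteine proteases among them are held in check by cystatins. In muscle, lysosomal proteolysis takes part in protein turnover and in atrophy, and macrophages are also rich in several of these enzymes.

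Of the 9 cathepsins, Ctsf was called lower in NF-YA cKO and none was called higher, where a call is an FDR under 0.01 with a log2 fold change past 1 in edgeR's quasi-likelihood test. Over all 17348 genes tested, 4.65% were called higher and 7.67% lower. Ctsl missed the call by its fold alone, with a log2 fold change of 0.96. With an FDR under 0.01 and no limit on the fold, 1 cathepsin was higher (Ctsl) and 1 was lower (Ctsf), beside 10.3% and 9.97% of all genes tested. Every NF-YA cKO library lay above every NF-YA fl/fl library in 4 cathepsins (Ctsl, Ctsb, Ctsz and Ctsh) and below in 1 (Ctsf). Such a separation was found in 29.1% of tested genes upward and 26.2% downward. The 9 cathepsins had a median log2 fold change of 0.16, beside -0.02 for all genes tested.

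**Figure D1:**
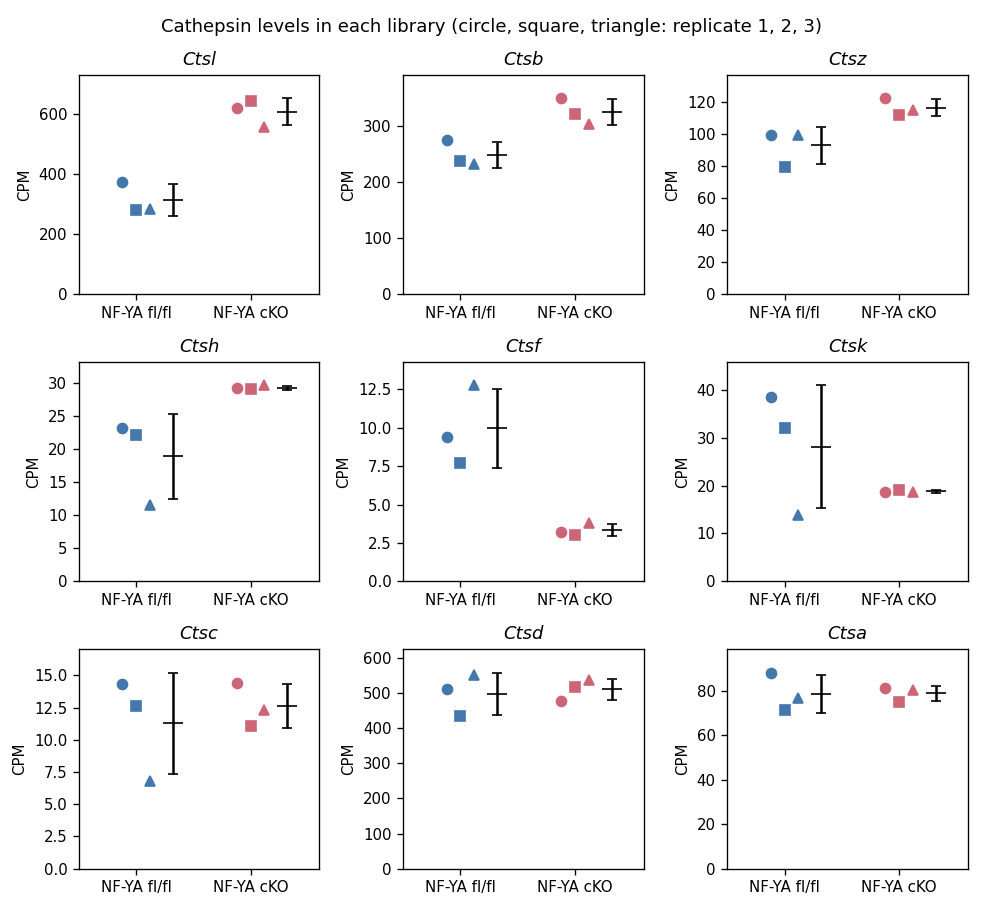
Level of each cathepsin in CPM (counts scaled to library size after TMM normalization, linear axes from 0) in the 3 NF-YA fl/fl and 3 NF-YA cKO libraries, with the mean and SD of each genotype as a black bar. Ctsl sits at 559 to 645 CPM in NF-YA cKO and 282 to 374 in NF-YA fl/fl, whereas Ctsf sits at 3.02 to 3.81 and 7.73 to 12.8.

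The libraries held 26936230 to 41118984 expected counts, and 3 counts corresponded to 0.0705 to 0.115 CPM. The entry for the deleted Nfya transcript held 189 to 393 expected counts in NF-YA cKO, or 22.3% to 34.2% of the Nfya counts, and 0 in every NF-YA fl/fl library. Nfya as a whole ranged from 27.0 to 28.5 CPM in NF-YA cKO and from 23.4 to 36.9 CPM in the controls. Xist ranged from 836 to 852 CPM in NF-YA cKO with at most 0.47 CPM in any control, while the Y-linked Ddx3y ranged from 80.9 to 88.6 CPM in the controls with at most 3 counts in NF-YA cKO. The sex of the cells and their genotype therefore cannot be told apart. The Methods of the study describe male mice at the tamoxifen injections.

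Marker genes of other cell types were read list by list. Of 20 macrophage markers 19 were tested, and 16 were called higher in NF-YA cKO and none lower. Their summed level was 169 to 312 CPM in NF-YA cKO and 14.3 to 28.0 CPM in NF-YA fl/fl. Lyz2, the macrophage lysozyme, made up most of that sum in NF-YA cKO, at 190, 203 and 101 CPM, against 4.01, 6.24 and 1.97 CPM in the controls (log2 fold change 5.33 and FDR = 0.000567). Laptm5, a lysosomal membrane protein of blood cells, had a log2 fold change of 2.15 (FDR = 0.000697). Aif1 stayed at or below 0.10 CPM in every library. The depletion used the antigens CD45, CD11b, CD31 and Sca1. Ptprc (CD45) was at 1.15 to 3.06 CPM in NF-YA cKO and 0 to 0.17 CPM in NF-YA fl/fl, and Itgam (CD11b) at 6.20 to 11.3 and 0.86 to 1.45 CPM. Pecam1 (CD31) was at 1.95 to 2.20 and 0.99 to 1.59 CPM. Ly6a (Sca1) was at 3.13 to 5.10 CPM in NF-YA cKO and at 18.5, 26.9 and 2.85 CPM in the controls, so the antigens did not all move 1 way. The fibro-adipogenic progenitor list summed to 2650 to 3139 CPM in NF-YA cKO and 1527 to 4686 CPM in NF-YA fl/fl, with the lowest value in NF-YA fl/fl replicate 3. In bulk libraries, more cells of a type and more RNA per cell cannot be told apart.

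SC and muscle identity was read from 2 further lists. Pax7, which marks SCs, was present in every library, at 145 to 201 CPM in NF-YA cKO and 73.5 to 105 CPM in NF-YA fl/fl. It was higher in NF-YA cKO but short of the fold limit (log2 fold change 0.94, FDR = 0.0062). Of 12 SC and myoblast markers 10 were tested. Des (log2 fold change -2.09) and Cdh15 (-1.78) were called lower and none higher, beside 7.67% and 4.65% of all genes tested. With an FDR under 0.01 and no limit on the fold, 2 were higher and 2 lower, so the list did not move in 1 direction. Its summed level was 1903 to 2130 CPM in NF-YA cKO and 2748 to 4533 CPM in NF-YA fl/fl. All 19 tested markers of differentiated muscle were called lower, led by Myh8 (-8.96), Myh3 (-8.09), Actn2 (-7.96) and Myl1 (-7.91), and they summed to 727 to 1602 CPM in NF-YA cKO and 50975 to 62828 CPM in NF-YA fl/fl. The part that any of these cell type differences has in the cathepsin values below was not tested.

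Cathepsin promoters were searched for the letters CCAAT, the core of the NF-Y box, and for CACGTG and its longer form TCACGTGA, the E-box core and the palindrome bound by the lysosomal regulator TFEB. Each motif was searched on both strands of the 250 bases before a RefSeq start (GRCm38.p6). CACGTG is contained in TCACGTGA, so those matches overlap. RefSeq windows were held for 7 of the 9 genes, 8 windows in all since 2 starts of Ctsa were covered, and Ctsb and Ctsh had none. Over all 32851 windows of this length, 33.8% held CCAAT, 6.02% CACGTG and 0.785% TCACGTGA. The 30 bases around the matches are shown because they place the called gene Ctsf beside the others, with the motif in capitals and each read 5′ to 3′ on the strand of its gene.
Ctsf E-box: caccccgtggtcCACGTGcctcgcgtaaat
Ctsf CCAAT: gaatcggtgcccATTGGccgccccggcgtt
Ctsz CCAAT: gggctgagtgggCCAATggaagcctgctga
Ctsd palindrome: ctcgcccgcgtcTCACGTGAcccgttgagg
Ctsa palindrome: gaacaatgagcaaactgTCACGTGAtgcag
Ctsl E-box: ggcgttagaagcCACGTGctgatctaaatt

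The Ctsf stretches lie at chr19:4855074-4855103 and chr19:4855125-4855154 on the plus strand, with the E-box first base at -79 and the CCAAT box, written there as its reverse complement ATTGG, at -28. The second stretch overlaps the first exon that GENCODE M21 gives for a longer Ctsf transcript. Ctsz holds CCAAT at -234 (chr2:174439256-174439285, minus strand). Ctsd holds the palindrome at -99 (chr7:142387909-142387938, minus strand), inside a longer first exon of GENCODE, and a further CACGTG at -245. The Ctsa palindrome starts at -13 of the second start (chr2:164833743-164833772, plus strand), which is exonic in GENCODE, and the window of the first start held none of the motifs. The Ctsl E-box starts at -236 (chr13:64370739-64370768, minus strand) and overlaps an exon of another Ctsl transcript. That position counts from a start at 64370520, whereas the RefSeq gene runs to 64370772, so the window lies inside the gene. No window was held for the upstream end, and which start the main Ctsl transcript uses was not examined. Ctsk and Ctsc held none of the 3 motifs in these 250 bases. Among the 7 genes with a window, CCAAT was thus present in the called gene Ctsf and in Ctsz, which was not called, and these matches are descriptions of letters and not of bound sites.

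The endopeptidases cut within protein chains. Ctsl, a cysteine endopeptidase with a broad role in lysosomal degradation, lies on chromosome 13 of GRCm38 from 64359337 to 64370890 on the minus strand. Its level was 622, 645 and 559 CPM in NF-YA cKO replicates 1 to 3 and 374, 282 and 284 CPM in NF-YA fl/fl replicates 1 to 3. All NF-YA cKO libraries were higher than all NF-YA fl/fl libraries, and the gap between the groups (559 against 374 CPM) was wider than the range within either of them. The means were 608 ± 44.6 and 313 ± 52.7 CPM (SD, n = 3). Ctsl was thus 1.94-fold higher in NF-YA cKO (log2 fold change 0.96 ± 0.14, standard error, with FDR = 0.0029 in edgeR's quasi-likelihood test). Without NF-YA fl/fl replicate 1, the highest of the controls, Ctsl was called, with a log2 fold change of 1.10 (FDR = 0.0044). Its FDR rose to between 0.0138 and 0.0228 when any NF-YA cKO library was left out, and to 0.0164 and 0.0188 with limma on log2(TPM + 0.1) and log2(TPM + 1). GENCODE places an antisense gene (Gm47123) over 1742 exonic bases of Ctsl, and whether the authors' counting used the strand is not given in the sources used here. A processed pseudogene on the same strand (Gm49230) shares 395 exonic bases with Ctsl, which the strand could not set apart. Neither of them was among the genes counted.

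Ctsf, a cysteine endopeptidase with an unusually long propeptide, lies on chromosome 19 from 4855130 to 4860918 on the plus strand. Its level was 3.22, 3.02 and 3.81 CPM in NF-YA cKO and 9.40, 7.73 and 12.8 CPM in NF-YA fl/fl. The groups did not overlap, and in CPM the NF-YA fl/fl libraries were more spread than the NF-YA cKO ones. In TPM Ctsf was at 2.03, 1.61 and 2.31 in NF-YA cKO and 5.83, 5.85 and 6.56 in NF-YA fl/fl. The groups were apart there too, but the wider spread of the controls relative to their mean was not seen. These values rest on 101 to 162 counts per library in NF-YA cKO and 246 to 376 in NF-YA fl/fl. Ctsf was 2.97-fold lower in NF-YA cKO (log2 fold change -1.57 ± 0.23, standard error, with FDR = 0.0028). The direction was the same under all 14 alternatives (log2 fold change -1.73 to -1.25). The call was lost when NF-YA cKO replicate 1 (FDR = 0.0155), 2 (FDR = 0.0186) or 3 (FDR = 0.0118) or NF-YA fl/fl replicate 1 (FDR = 0.0119) was left out, although the log2 fold change stayed between -1.70 and -1.54.

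Ctsb combines endopeptidase and carboxydipeptidase activity and lies on chromosome 14 from 63122462 to 63145923 on the plus strand. It was at 350, 321 and 303 CPM in NF-YA cKO and 275, 239 and 232 CPM in NF-YA fl/fl. Its groups were apart in CPM, while on the deposited TPM scale NF-YA cKO replicate 2 (144 TPM) lay below NF-YA fl/fl replicate 2 (149 TPM). The difference (0.38 ± 0.11 on the log2 scale, standard error) missed the threshold, with FDR = 0.0299. Ctsb shares 774 exonic bases with Fdft1 on the opposite strand, a gene with a mean of 33.0 CPM.

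Ctsd, the aspartic protease, lies on chromosome 7 from 142375911 to 142388038 on the minus strand. It was at 478, 517 and 539 CPM in NF-YA cKO and 512, 434 and 552 CPM in NF-YA fl/fl. The NF-YA cKO values lay within the range of the controls, and the log2 fold change was 0.03 ± 0.12 (standard error), with FDR = 0.839. With this spread no difference in Ctsd was detectable between the genotypes. GENCODE gives a second gene on the same strand (Gm49369) that shares 808 exonic bases with Ctsd.

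Ctsk, a collagen-degrading protease best known from osteoclasts, lies on chromosome 3 from 95499256 to 95509362 on the plus strand, near Ctss. It was at 18.7, 19.2 and 18.6 CPM in NF-YA cKO and 38.5, 32.1 and 13.9 CPM in NF-YA fl/fl. The NF-YA cKO libraries lay together between NF-YA fl/fl replicate 3 and the other controls. With every library the log2 fold change was -0.58 ± 0.34 (standard error), with FDR = 0.214. Without NF-YA fl/fl replicate 3 it was -0.91 with an FDR of 0.000858. That library was also low in Pdgfra, which marks fibro-adipogenic progenitors, at 21.6 CPM against 132 and 147 CPM in the other NF-YA fl/fl libraries. Pdgfrb, which marks pericytes, was at 56.5 CPM there against 276 and 304 CPM. Of the pericyte and smooth muscle markers, Acta2 (1718 CPM against 1740 and 1389) and Abcc9 (71.2 against 78.9 and 57.7) were not lowest there. The other members were, and the list summed to 1970 CPM against 2377 and 2119 CPM. The SC and myoblast list was highest in that library, at 4533 CPM against 3292 and 2748 CPM. Myod1 was at 1146 CPM there against 361 and 295 CPM. Not every member of that list was highest there, as Sdc4 (117 CPM against 121 and 148) and Des (1429 against 1528 and 1218) show.

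The exopeptidases trim peptides from their ends. Ctsz, a carboxypeptidase on chromosome 2 (174427493 to 174439039, minus strand), was at 122, 112 and 115 CPM in NF-YA cKO and 99.6, 79.6 and 99.2 CPM in NF-YA fl/fl. The groups did not overlap in CPM, and the log2 fold change was 0.33 ± 0.11 (standard error), with FDR = 0.0585. On the TPM scale they overlapped, since NF-YA cKO replicate 2 (85.2 TPM) was below NF-YA fl/fl replicates 1 (87.9 TPM) and 2 (85.8 TPM).

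Ctsh, an aminopeptidase on chromosome 9 (90054152 to 90076089, plus strand), was at 29.1, 29.0 and 29.6 CPM in NF-YA cKO and 23.1, 22.0 and 11.5 CPM in NF-YA fl/fl. The NF-YA cKO libraries were nearly level with each other and above all controls, of which replicate 3 was far below the others. The log2 fold change was 0.63 ± 0.25 (standard error), with FDR = 0.0874, and 0.37 with FDR = 0.0107 without NF-YA fl/fl replicate 3.

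Ctsc, the dipeptidyl peptidase that activates granule proteases of blood cells, lies on chromosome 7 from 88278085 to 88310888 on the plus strand. It was at 14.4, 11.1 and 12.3 CPM in NF-YA cKO and 14.3, 12.6 and 6.82 CPM in NF-YA fl/fl. Again NF-YA fl/fl replicate 3 was the lowest library and the groups overlapped, and the log2 fold change of 0.16 ± 0.28 (standard error), with FDR = 0.669, turned to -0.10 without that library. Ctsa, the serine carboxypeptidase that also protects lysosomal β-galactosidase and neuraminidase, lies on chromosome 2 from 164832873 to 164841032 on the plus strand. It was at 81.5, 74.9 and 80.3 CPM in NF-YA cKO and 88.2, 71.5 and 76.7 CPM in NF-YA fl/fl. Its groups overlapped, and the log2 fold change was 0.0022 ± 0.11 (standard error), with FDR = 0.989.

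**Figure D2:**
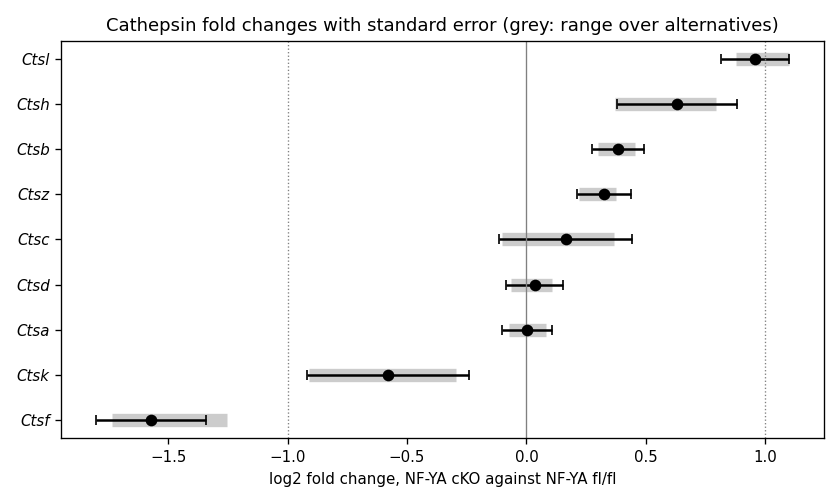
Log2 fold change of each cathepsin, NF-YA cKO against NF-YA fl/fl, as points with the standard error of the fit as black bars, grey bands for the range over 14 alternatives and dotted lines at the fold limits of the call. The band of Ctsf (-1.73 to -1.25) lies past the lower limit, that of Ctsl (0.88 to 1.10) straddles the upper one, and those of Ctsa, Ctsd and Ctsc cross 0.

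The spread between replicates was not equal in the genotypes. In CPM, the SD was 0.997% to 13.4% of the mean for the 9 cathepsins in NF-YA cKO and 9.35% to 45.4% in NF-YA fl/fl. On that scale it was larger in NF-YA fl/fl for each of them. The widest spreads in CPM in NF-YA fl/fl were those of Ctsk (45.4%), Ctsc (35.0%) and Ctsh (33.8%), the genes that were low in replicate 3. In TPM the members were mixed. The SD in TPM was larger in NF-YA cKO for Ctsc (1.07 against 0.61 TPM), Ctsz (12.1 against 8.41) and Ctsd (25.5 against 23.6). Ctsf had an SD of 0.35 on a mean of 1.98 TPM in NF-YA cKO, and 0.42 on 6.08 in NF-YA fl/fl. For Ctsa, Ctsb, Ctsh, Ctsk and Ctsl the SD in TPM was larger in NF-YA fl/fl.

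**Figure D3:**
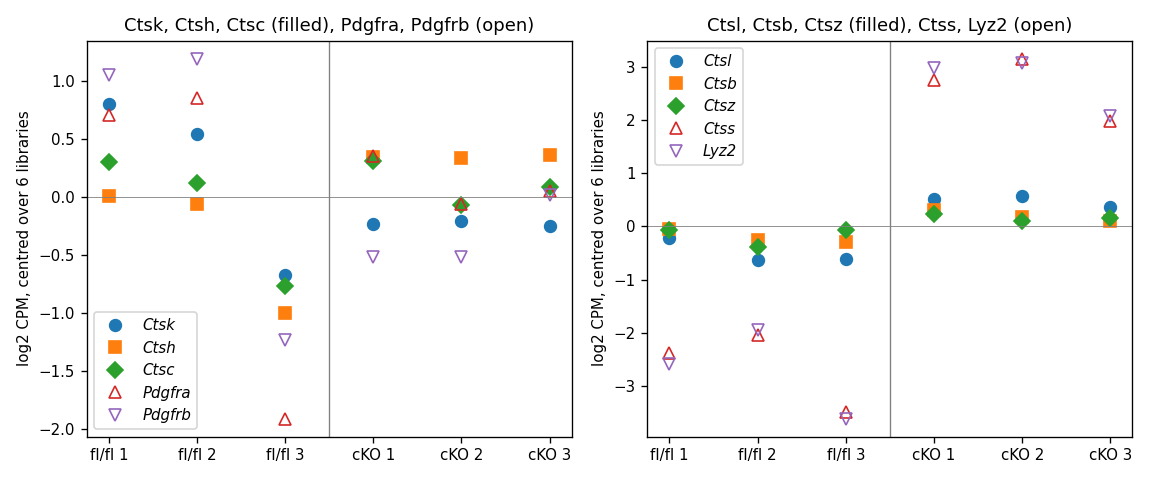
Log2 CPM of each gene minus its mean over the 6 libraries, shown by library, for Ctsk, Ctsh and Ctsc with Pdgfra and Pdgfrb (left) and for Ctsl, Ctsb and Ctsz with Ctss and Lyz2 (right), where filled symbols are the 9 cathepsins and open symbols other genes. Replicate 3 of NF-YA fl/fl is the lowest library for all 5 genes on the left, and on the right Lyz2 (1.97 to 6.24 CPM in NF-YA fl/fl, 101 to 203 in NF-YA cKO) moves far more than Ctsl (282 to 374 and 559 to 645 CPM).

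Within NF-YA cKO, the macrophage list summed to 296, 312 and 169 CPM in replicates 1 to 3. Most of its members, Lyz2 among them, were lowest in replicate 3. Laptm5, at 14.4, 20.2 and 15.8 CPM, was an exception and was lowest in replicate 1. Ctsl, Ctsb and Ctsk were lowest in replicate 3, Ctsz, Ctsa, Ctsc, Ctsf and Ctsh in replicate 2, and Ctsd in replicate 1. The sizes were unlike. Replicate 3 stood at 53.1% of replicate 1 for Lyz2 and 59.1% for Ctss, but at 89.9% for Ctsl and 86.7% for Ctsb. The part of these markers in the level of any of the 9 cathepsins was not tested.

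Levels of different cathepsins were compared per length, as TPM. In NF-YA fl/fl the order was Ctsd (314 ± 23.6 TPM, SD, n = 3), Ctsl (237 ± 54.8), Ctsb (128 ± 31.8), Ctsz (82.0 ± 8.41), Ctsa (28.2 ± 4.79), Ctsk (23.3 ± 12.4), Ctsh (15.3 ± 7.06), Ctsf (6.08 ± 0.42) and Ctsc (3.70 ± 0.61). The ranges of Ctsa and Ctsk and those of Ctsk and Ctsh overlapped, so their ranges do not set these neighbours apart, while the other neighbours were apart. In NF-YA cKO the order was Ctsl (429 ± 34.2 TPM), Ctsd (305 ± 25.5), Ctsb (162 ± 23.2), Ctsz (97.9 ± 12.1), Ctsa (26.7 ± 3.37), Ctsh (21.5 ± 1.89), Ctsk (14.0 ± 0.90), Ctsc (3.83 ± 1.07) and Ctsf (1.98 ± 0.35), and the ranges of all neighbours were apart. Ctsl and Ctsd thus changed places at the top, and Ctsf and Ctsc at the bottom. Although the ranges of Ctsk and Ctsh overlapped in NF-YA fl/fl, Ctsk was above Ctsh within each control library (30.39 and 17.82, 30.55 and 20.8, 8.94 and 7.36 TPM). It was below Ctsh within each NF-YA cKO library.

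The ratio of Ctsl to Ctsd in TPM was 1.54, 1.48 and 1.22 in NF-YA cKO and 0.871, 0.766 and 0.609 in NF-YA fl/fl. It was above 1 in every NF-YA cKO library and below 1 in every NF-YA fl/fl library. The 9 genes together held 1144, 983 and 1061 TPM in NF-YA cKO and 922, 914 and 675 TPM in NF-YA fl/fl. Ctsl made up 38.2% to 42.2% of that sum in NF-YA cKO and 25.9% to 30.3% in NF-YA fl/fl, and Ctsd 26.6% to 31.2% and 34.8% to 42.6%. Ctsl, Ctsd and Ctsb together held 84.4% ± 0.75 of the sum in NF-YA cKO and 81.1% ± 0.82 in NF-YA fl/fl (SD, n = 3).

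**Figure D4:**
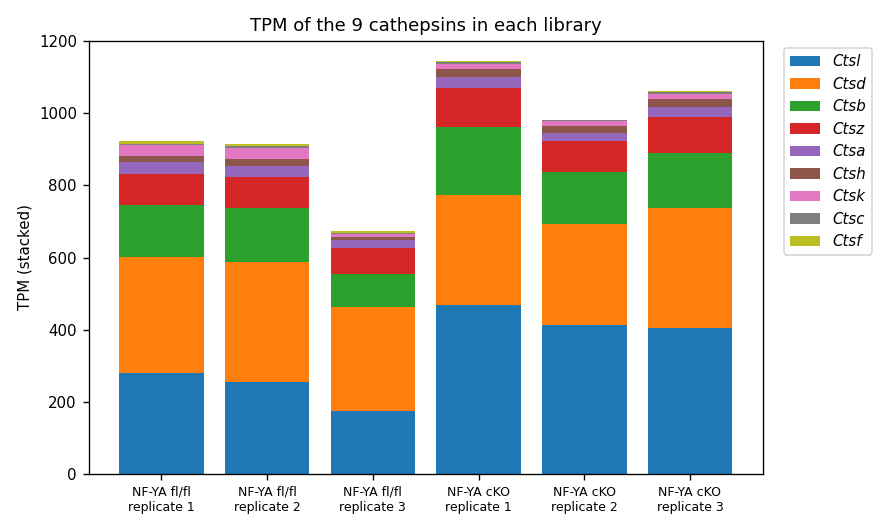
TPM of the 9 cathepsins stacked for each library (3 NF-YA fl/fl, 3 NF-YA cKO), largest mean in NF-YA cKO at the bottom. The stacks reach 675 to 922 TPM in NF-YA fl/fl and 983 to 1144 TPM in NF-YA cKO, and the Ctsl block (175 to 280 TPM against 405 to 469 TPM) differs more than the Ctsd block (287 to 333 against 280 to 331 TPM).

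No shift between the transcripts of a gene was detectable with 3 libraries per genotype. For Ctsl, the 1646 nt form held 98.1% to 98.8% of the gene's TPM in every library. Ctsh was carried by its 1623 nt form (96.1% to 100%) and Ctsk by its 1583 nt form (93.9% to 98.7%). Ctsd, Ctsf and Ctsz had 1 transcript each. The longer Ctsb form of 4743 nt held 24.6% to 26.1% in NF-YA cKO and 25.6% to 32.3% in the controls (two-sided exact permutation test, p = 0.3), and the 3548 nt form of Ctsa 11.4% to 13.4% and 10.5% to 18.1% (exact permutation p = 0.5). The 603 nt form of Ctsc ranged from 34.0% to 51.0% and from 27.4% to 67.9% (exact permutation p = 0.9) on 11.7 to 36.5 counts. Over the 10 shares tested the Benjamini-Hochberg adjusted p of the exact permutation tests was at least 0.833, in a design where 3 libraries against 3 cannot go below p = 0.1.

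The genes whose levels ran closest to each cathepsin over the 6 libraries were found among the 9449 genes whose mean reached 10 CPM, by the root mean square difference of log2(CPM + 1) centred over the libraries. Tnc was closest to Ctsl, with a difference of 0.0506 and a log2 fold change of 1.01 (FDR = 0.0023), followed by Pigf (difference 0.0788). Tmem120b was closest to Ctsf (difference 0.0620, log2 fold change -1.36, FDR = 0.0029), followed by 2310022B05Rik. Map6 and Irgm1 were closest to Ctsk, Tpm4 and Swap70 to Ctsh, and Fez2 and Pdia5 to Ctsc. The pairs were Tmx3 and Cops2 for Ctsb, 0610012G03Rik and Aimp2 for Ctsz, Ubl5 and Gipc1 for Ctsd, and Chmp7 and Acbd3 for Ctsa. Each of these differences was at most 0.0906.

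The other cathepsins were mostly silent. Of the 14 other family members 4 were tested and 10 stayed below 1 CPM in every library, among them the placental genes. Ctss, a cysteine protease of antigen-presenting cells that lies next to Ctsk on chromosome 3 (95526786 to 95556403), was the only one called, and was higher in NF-YA cKO. It was at 25.4, 33.7 and 15.0 CPM in NF-YA cKO and 0.73, 0.92 and 0.34 CPM in NF-YA fl/fl, which gave a log2 fold change of 5.20 ± 0.45 (standard error), with FDR = 0.000466. Ctsw had a log2 fold change of 1.84 (FDR = 0.0468) and Ctso of 0.05 (FDR = 0.852).

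Among the inhibitors of cathepsins, 4 of 9 genes were tested. The most abundant cystatins differed between the genotypes in opposite directions, each with an FDR under 0.01. Cst3, the secreted cystatin C, was at 64.0, 61.5 and 63.7 CPM in NF-YA cKO and 110, 97.0 and 90.0 CPM in the controls (-0.65 on the log2 scale, FDR = 0.0033). Cstb, the intracellular cystatin B, was at 41.4, 44.1 and 43.0 CPM in NF-YA cKO and 28.5, 24.2 and 24.5 CPM in the controls (0.73 on the log2 scale, FDR = 0.0025). The groups did not overlap for either gene, and both fell short of the fold limit. The ratio of Cst3 to Cstb in CPM was 1.40 to 1.55 in NF-YA cKO and 3.67 to 4.004 in NF-YA fl/fl. Cst6, another secreted cystatin, was the only inhibitor called (log2 fold change 1.32, FDR = 0.0063), and Serpinb6a was at 0.23 (FDR = 0.299).

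Of 15 genes that sort enzymes to the lysosome, 2 were called lower and none higher, beside 7.67% and 4.65% of all genes tested. Both of the called genes encode sorting receptors. Sort1, sortilin, was at 16.2, 14.3 and 13.8 CPM in NF-YA cKO and 70.0, 53.5 and 82.2 CPM in NF-YA fl/fl (log2 fold change -2.22, FDR = 0.000347). Igf2r, the large mannose 6-phosphate receptor, was at 216, 222 and 227 CPM in NF-YA cKO and 598, 498 and 620 CPM in NF-YA fl/fl (-1.37, FDR = 0.0004). M6pr, the small mannose 6-phosphate receptor, went the other way without reaching the fold limit, at 156, 151 and 144 CPM in NF-YA cKO and 105, 102 and 95.7 CPM in NF-YA fl/fl (0.57, FDR = 0.0029). Gnptab, a subunit of the enzyme that adds the mannose 6-phosphate tag, had a log2 fold change of 0.57 (FDR = 0.0097). Ap1s1, an adaptor subunit, was also above 0 (0.56, FDR = 0.0065), and Gga2, an adaptor for the mannose 6-phosphate receptors, was below it (-0.81, FDR = 0.0010).

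The remaining lysosomal lists were counted in the same way. Of 7 other lysosomal peptidases tested, none was called at the fold limit. The median log2 fold change of these peptidases was -0.53, and Lgmn, the asparaginyl endopeptidase that processes several cathepsins, was at -0.67 (FDR = 0.0077). Of 34 glycan and lipid hydrolases, Gusb, the β-glucuronidase (1.002, FDR = 0.0037), and Acp5, an acid phosphatase of osteoclasts and macrophages (3.43, FDR = 0.0060), were called higher, with a median of 0.10. Of 20 membrane proteins, Ctns, the cystine exporter, was called lower (-1.17, FDR = 0.0036), with a median of -0.16. Of 20 V-ATPase subunits tested, which acidify the lysosome, Atp6v1g1 (1.21, FDR = 0.0024) and Atp6v0d2 (4.24, FDR = 0.000913) were called higher, with a median of -0.05. Acp5 and Atp6v0d2 were scarce. Acp5 was at 1.97 to 4.56 CPM in NF-YA cKO and at most 0.42 CPM in NF-YA fl/fl, and Atp6v0d2 at 1.74 to 3.26 and at most 0.18 CPM. Of 21 MiT/TFE factors and autophagy genes, Map1lc3a (-1.41, FDR = 0.0030) and Flcn (-1.04, FDR = 0.0050) were called lower, and Tfeb was at -0.98 (FDR = 0.0246), with a median of -0.05.

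In all, 125 of the 143 genes on these other lists were tested, here termed the other lysosomal genes. They include inhibitors, sorting genes, autophagy genes and MiT/TFE factors as well as lysosomal proteins. Of those tested, 6 were called higher and 5 lower, where 4.65% and 7.67% of all genes tested were called, with a median log2 fold change of -0.01. The 9 cathepsins, with none called higher, 1 called lower and a median of 0.16, were not tested against that list.

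**Figure D5:**
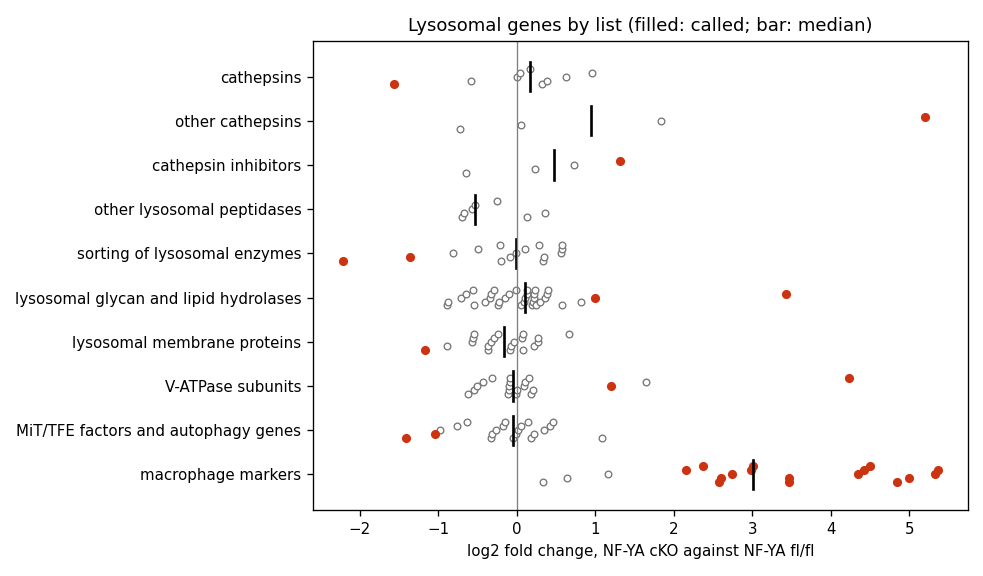
Log2 fold change, NF-YA cKO against NF-YA fl/fl, of every tested gene in the cathepsin list, the other lysosomal lists and the macrophage markers, with called genes filled in red and the median of each list as a black bar. The 9 cathepsins spread from -1.57 (Ctsf) to 0.96 (Ctsl), whereas the tested macrophage markers all lie above 0.

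The counts for the marker lists of other cells stand beside 4.65% called higher and 7.67% called lower over all genes tested. Of 12 fibro-adipogenic progenitor markers, 1 (Lum) was called higher and none lower, while 8 lay below 0, with a median log2 fold change of -0.34. Of 8 endothelial markers tested, Kdr was called higher and Vwf lower, and the list summed to 19.4 to 23.5 CPM in NF-YA cKO and 13.4 to 15.4 CPM in NF-YA fl/fl. Of 7 pericyte and smooth muscle markers tested, Abcc9 (-5.52) and Acta2 (-1.20) were called lower, and the list summed to 895 to 1039 CPM and 1970 to 2377 CPM.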

How the data were processed

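The authors made stranded total RNA libraries from cultured SCs. Reads were aligned with Bowtie2 to mm10 transcripts and quantified by RSEM. The deposited expected counts are neither normalized nor filtered, and RSEM splits reads shared by transcripts, so genes with near-identical or overlapping copies are estimates. The deposited TPM are scaled to length and to a common sum and keep no depth. The deposited percent gives the share of each transcript in its gene's TPM. Samples were grouped by the genotype label.

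Expected counts were rounded, and genes above 10 counts in 2 or more libraries (17348 of 35976) entered a fit by edgeR 4.0.16 in R 4.3.3. It used TMM, the quasi-likelihood test with genotype alone, and Benjamini-Hochberg FDR over all genes tested. CPM are counts scaled to library size after TMM. The call (FDR under 0.01, log2 fold change past 1) follows the study's Methods. The fit was tested on simulated counts. Replicates differed by more than sampling noise. With totals of 26936230 to 41118984 counts, the spread between libraries rather than depth limits most comparisons. Coordinates are from GENCODE M21 (GRCm38) and promoter windows from RefSeq (GRCm38.p6).

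The members and lists were chosen with earlier results of these data known. Named from each list were genes that were called and averaged 10 CPM or more, up to the 4 with the largest change, and for each member the 2 nearest genes. Other genes named outside this rule (Ptprc, Itgam, Pecam1, Ly6a, Aif1, Pax7, Myod1, Sdc4, Pdgfra, Pdgfrb, Ctsw, Ctso, Cst3, Cstb, Cst6, Serpinb6a, M6pr, Gnptab, Ap1s1, Gga2, Lgmn, Acp5, Atp6v0d2, Tfeb, Lum, Kdr and Vwf) were chosen after their values were seen. The result of 1 marker list is not reported here. Alternatives were DESeq2 1.42.0, its size factors, filterByExpr, no filter, no rounding, limma 3.58.1 on log2(TPM + 1) and log2(TPM + 0.1), other thresholds, a replicate block and leaving out each library. Plots were drawn with matplotlib 3.10.9.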

Additional observations from a re-analysis of the deposited data

How the results depend on the processing

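Ctsf stayed lower and Ctsl, Ctsb, Ctsz and Ctsh stayed higher in NF-YA cKO under all 14 alternatives computed for each log2 fold change, and Ctsk stayed below 0 (-0.91 to -0.30). The ranges were 0.88 to 1.10 for Ctsl, 0.30 to 0.46 for Ctsb, 0.22 to 0.37 for Ctsz and 0.37 to 0.79 for Ctsh. The number of cathepsins called higher was 0, and 1 with no limit on the fold, and 0 to 1 when each library was left out. The number called lower was 1, and 0 under glmTreat against a log2 fold change of 1, and 0 to 1 when each library was left out. The 6 other lysosomal genes called higher became 2 under glmTreat, 3 with limma on log2(TPM + 1), 4 with limma on log2(TPM + 0.1), 12 with no limit on the fold and 2 to 5 when each library was left out. The 5 called lower became 1, 5, 5, 12 and 2 to 6 in the same order.

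The values near 0 changed sign. For Ctsa it was -0.019 with DESeq2 and with its size factors, -0.030 without rounding, -0.035 with filterByExpr, -0.072 and -0.070 with limma on log2(TPM + 0.1) and log2(TPM + 1), and -0.073 to 0.084 over the 6 fits that left out a library. For Ctsd it was -0.0012 with filterByExpr, -0.041 with limma on either TPM scale, and -0.065 to 0.11 over those 6 fits. Ctsc was at -0.10 without NF-YA fl/fl replicate 3. The cause was not tested.

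The labels number the replicates of both genotypes. The deviations of same-numbered libraries correlated at 0.224, -0.116 and 0.0524, so the numbers were not taken as pairs. With the replicate number as a block, the cathepsins called stayed at 0 higher and 1 lower, while for the other lysosomal genes the count called higher was 6 and the count called lower went from 5 to 3.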
